A study of Mus musculus with 42 samples.

Results

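The miR-297, miR-466, miR-467 and miR-669 families are rodent microRNAs (miRNAs) built on short repeats, and they were followed here in the vesicles and lysates of mouse cortical neurons. Members were all mature miRNAs of these families whose number is followed by a letter. They filled 80 rows of the small RNA table, and rows with identical counts were merged (miR-467a-5p and miR-467b-5p became miR-467a/b-5p, for example), which left 67 distinct members of 1897 distinct miRNAs. Names joined by a slash in this way share every count in the table, so the reads of those miRNAs could not be told apart.

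Cortical neurons were cultured from embryos of NMRI mice at embryonic day 16. They received brain-derived neurotrophic factor (BDNF) at 50 ng/ml for 20 min, or vehicle (Ctrl), and were collected 16 h later. Small RNA was sequenced from small extracellular vesicles (EVs) in the medium and from the lysates of the donor cells, in 4 groups of 6 libraries: BDNF EV, Ctrl EV, BDNF lysate and Ctrl lysate. All cultures were plated in medium with horse serum, which was then exchanged for medium with B27 supplement. A separate set of 18 gene libraries came from NMRI hippocampal neurons of the same embryonic day. They had received BDNF (n = 6) or vehicle (n = 6), or, for 24 h, EVs of BDNF-treated cortical neurons (n = 3) or of Ctrl cortical neurons (n = 3). BDNF was again given at 50 ng/ml for 20 min, and the time from then to collection is not given for these neurons. No label says that replicates came from separate cultures, so p-values measure the spread between these libraries, which may be technical.

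Most of these miRNAs are cut from a long run of tandem hairpins in an intron of Sfmbt2, a gene of the Polycomb group that is expressed from the paternal allele and is needed in the mouse placenta. Each hairpin gives a 5p and a 3p strand, and the strand loaded into an Argonaute protein selects targets mainly through its seed, bases 2 to 8. Because the hairpins are near copies of each other, a sequenced read of 1 mature form often matches many genes. The hairpins that lie elsewhere in the genome carry the same kind of UG and AC repeats.

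In the RefSeq annotation (GRCm38.p6), 72 of 82 precursor genes of these families lie inside Sfmbt2 (chr2:10370440-10595253), in a stretch of 51617 bases from position 10466663 to position 10518279. By family, 29 are miR-669 genes, 24 are miR-466 genes, 14 are miR-467 genes and 5 are miR-297 genes. Neighbouring Mir467a copies start a median of 2462 bases apart (2413 to 4880 over 10 copies), so the cluster is a regular repeat of a unit that holds hairpins of miR-467, miR-466 and miR-669 over much of its length. No other miRNA in the small RNA table has a precursor gene inside Sfmbt2.

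**Figure D1:**
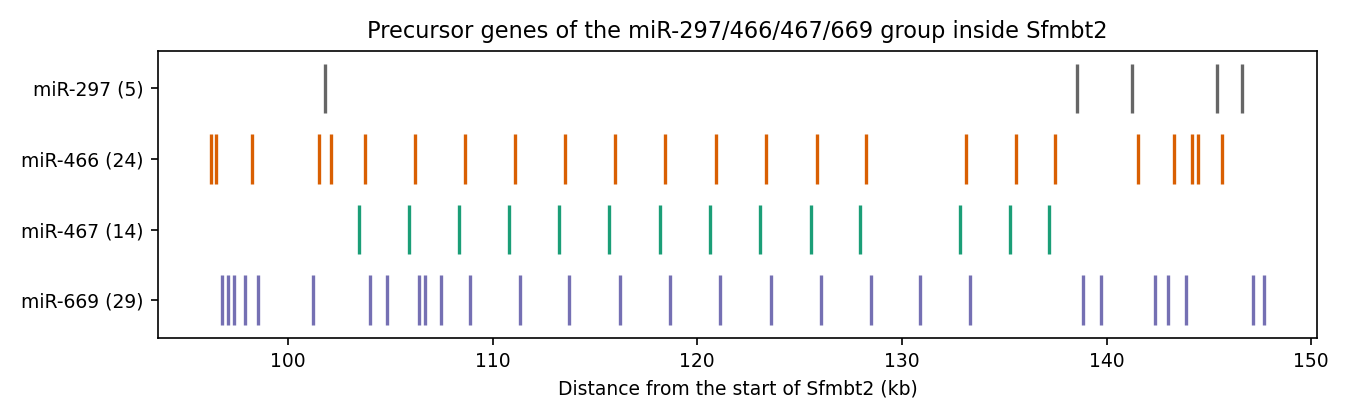
Position of the 72 precursor genes inside Sfmbt2, as distance in kb from the start of the gene (x axis), by family (y axis, number of genes in parentheses). Each tick is 1 precursor gene. The miR-467 genes recur at nearly even spacing in the middle of the cluster, with miR-466 and miR-669 genes between them.

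RefSeq mature sequences were matched to 8 members, all from precursors outside Sfmbt2. They are shown because no other member matched, so no sequence from the Sfmbt2 cluster is among them. The seed (bases 2 to 8) is in capitals, and each sequence runs 5′ to 3′.
miR-466i-3p: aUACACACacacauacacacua
miR-466q: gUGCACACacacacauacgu
miR-467f: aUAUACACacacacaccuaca
miR-467g: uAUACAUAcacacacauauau
miR-466k: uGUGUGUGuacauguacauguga
miR-466j: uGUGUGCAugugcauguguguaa
miR-669n: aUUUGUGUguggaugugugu
miR-467h: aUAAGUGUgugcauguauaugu
No seed is shared between them. On the plus strand lie miR-466i-3p (chr13:17747552-17747573), miR-466q (chr3:28419988-28420007), miR-466k (chr3:85467396-85467418), miR-466j (chr10:60960802-60960824), miR-669n (chr3:115979905-115979924) and miR-467h (chr9:115381898-115381919), and on the minus strand miR-467f (chr11:69635419-69635439) and miR-467g (chr5:34732872-34732892). All 8 were rare here, with 104 counts over all libraries for miR-466i-3p and 2 to 22 for the others. Of the 8, 7 hold UGUGUGU or ACACACA (read on the miRNA strand), against 16 of 1738 mature sequences in the reference table (0.921%, these 7 included). The exception is miR-467h. The AC-rich sequences stand first and the UG-rich ones after them.

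The members were widely detected but scarce, and a few of them held nearly all the counts. At least 1 count was found for 61 of the 67 members, beside 1355 of the 1897 distinct miRNAs of the table. Counts in all 24 libraries were found for 10 members. The 6 members at 0 everywhere were miR-466l-5p, miR-669g, miR-669h-3p, miR-669i, miR-669j and miR-669k-3p. Over all libraries 13 members had 1 to 9 counts, 17 had 10 to 99, and 22 had at least 100 but fewer than the leading 9, which had 1332 to 37004. The 8 most abundant members held 91.2% of the members' counts. The leading one, miR-467a/b-5p, was 99th of 1897 miRNAs by mean level, of which 542 were at 0 in every library. Levels are given as CPM, a miRNA's counts relative to its library's TMM-scaled total, and mature miRNAs are of nearly the same length.

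Depth differed between vesicles and cells, which bears on every detection count. EV libraries held 377116 to 3945963 miRNA counts and lysates 4569850 to 10260819. A library showed a median of 30 members in EVs (15 to 35, n = 12) and of 45 in lysates (37 to 50, n = 12). At the smallest library total, 377116 counts, the expected number was a median of 21.1 in EVs (15 to 23.1) and 23.2 in lysates (20.7 to 26.2), so the gap between the medians was smaller at equal depth. At that same depth the other miRNAs of the table numbered a median of 527 in EVs (503 to 537) and 493 in lysates (480 to 510). The member seen in EVs alone, miR-297c-5p, had 2 counts, and the 11 members seen in lysates alone had at most 30 counts each over 12 libraries.

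Summed over all members, the vesicles and the lysates held a similar share of miRNA counts. The share was 0.0926% ± 0.00852 in BDNF EVs, 0.107% ± 0.0184 in Ctrl EVs, 0.101% ± 0.0202 in BDNF lysates and 0.0905% ± 0.0176 in Ctrl lysates (SD, n = 6 each), and the ranges of the 4 groups overlap. By position of the annotated precursors the sums are given in TMM-scaled CPM, another scale than the share of library counts above. Members with all their precursors inside Sfmbt2 (52 members, 46 with counts) summed to a median of 712 CPM in BDNF EVs (690 to 791) and 704 CPM in Ctrl EVs (591 to 901), against 959 CPM in BDNF lysates (836 to 1145) and 1035 CPM in Ctrl lysates (779 to 1148). In CPM the BDNF EVs and BDNF lysates do not overlap in this sum, while the Ctrl groups do. Whether the same holds for the share of library counts, and the part of the scaling in this gap, was not tested. Members with no precursor inside Sfmbt2 (9 members) summed to 105 CPM in BDNF EVs, 141 CPM in Ctrl EVs, 49.8 CPM in BDNF lysates and 67.2 CPM in Ctrl lysates (medians), and nearly all of this was miR-466i-5p: without it the medians were 0.813, 0.984, 1.64 and 1.6 CPM in the same groups.

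The deposited counts of 10 members came in fixed steps, and in 5 of them the step equalled the number of precursor genes. For example, every count of miR-467a/b-5p and of miR-467a/d-3p was a multiple of 11, and each has 11 precursor genes. Every count of miR-669a/p-5p was a multiple of 14, with 14 precursor genes. The counts of miR-466c-5p were multiples of 3 and those of miR-669d-5p multiples of 2, again the number of their genes. For miR-669a/o-3p the step was 12 (13 genes by name), for miR-297a/b/c-3p 4 (6 genes), for miR-466m-5p, merged with miR-669m-5p, 5 (3 genes), for miR-669b-5p 3 (1 gene) and for miR-466e-5p 2 (1 gene). Such a common step was found in 10 of the 34 members with at least 5 different count values, and in 12 of 672 other miRNAs with as many. Whether the counting added 1 for each matching gene copy was not tested, since no source used here names the aligner or the counter.

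Whether 1 step stands for 1 read was not tested; the number of steps is given here beside the counts. In BDNF EV library 8, the shallowest, the 77 counts of miR-467a/b-5p are 7 steps and the 44 counts of miR-467a/d-3p are 4 steps. Divided by its step, miR-467a/b-5p had 7 to 169 counts in EV libraries and 141 to 312 in lysates, and miR-669a/p-5p had 2 to 28 in EVs and 31 to 67 in lysates. The order of abundance changed with it. As deposited, miR-467a/b-5p led with a mean of 348 CPM over the 24 libraries, before miR-466i-5p (99.8 CPM), miR-669a/p-5p (97.3 CPM), miR-467a/d-3p (78.8 CPM), miR-466b/c/p-3p (71.6 CPM), miR-466a/e-3p (69.3 CPM), miR-669c-5p (65.2 CPM) and miR-669a/o-3p (64.3 CPM). Divided, miR-466i-5p came first, then miR-466b/c/p-3p, miR-466a/e-3p and miR-669c-5p, with miR-467a/b-5p at rank 5 (31.6 CPM) and miR-669a/p-5p at rank 9 (6.95 CPM). Only members with a common step were divided. Since miR-466b/c/p-3p has 12 precursor genes but no common step, it stayed undivided. The new order thus sets divided members beside a member of many genes that was not divided. These ranks pool EVs and lysates. The mean of miR-466i-5p was 110 CPM in BDNF EVs and 172 CPM in Ctrl EVs, but 51.9 CPM in BDNF lysates and 65.4 CPM in Ctrl lysates, where miR-466b/c/p-3p (97.8 and 98.6 CPM) and miR-466a/e-3p (94.1 and 95.1 CPM) were higher.

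**Figure D2:**
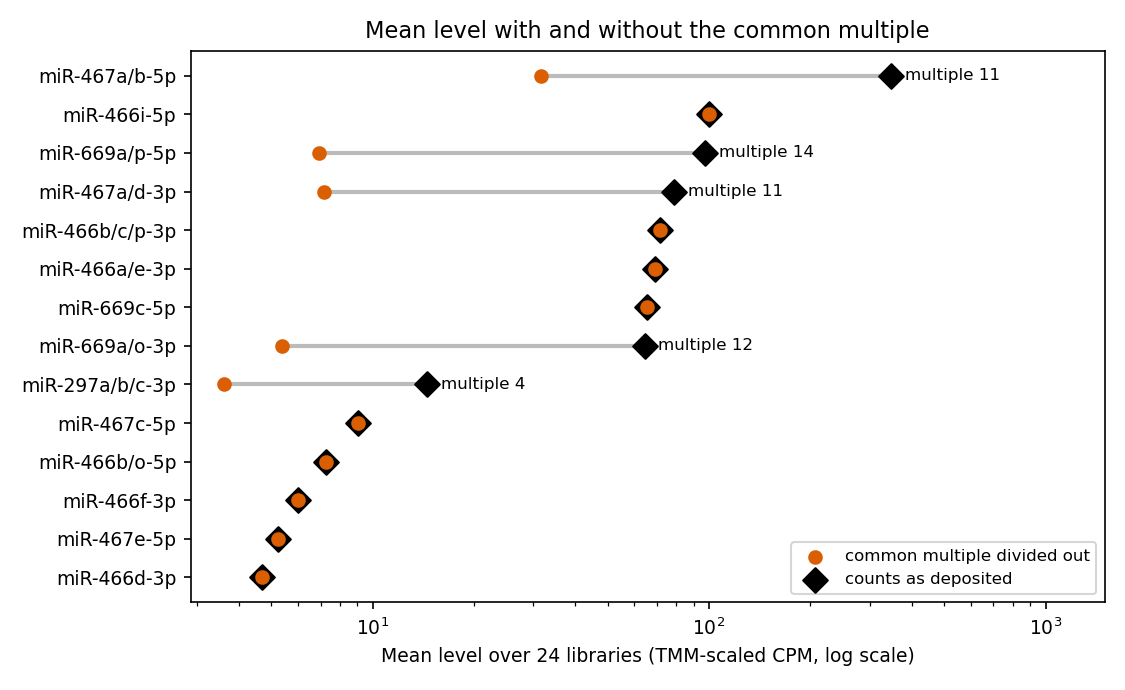
Mean level over the 24 small RNA libraries (x axis, TMM-scaled CPM on a log scale) of the 14 most abundant members, from the counts as deposited (black diamonds) and after each member's counts were divided by their common multiple (orange points). A grey line joins both values where there is a multiple, which is printed beside it; miR-467a/b-5p is at 31.6 CPM after division and at 348 CPM as deposited, and miR-466i-5p stays at 99.8 CPM.

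The pair miR-466b/c/p-3p and miR-466a/e-3p had no common step over all libraries, but their counts ran side by side. The ratio of their counts, the first over the second, had a median of 1.04 in the 23 libraries where both had counts (0.93 to 1.08). In the shallow Ctrl EV library 8 they had 14 and 13 counts, in Ctrl EV library 7 they had 28 and 26, and in BDNF EV library 8 both were at 0. Their levels are therefore not separate evidence in any comparison.

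The strands of several hairpins were unequally represented, and which strand led depended on the hairpin. As deposited, the 5p members summed to 619 CPM ± 97.5 in BDNF EVs, 648 CPM ± 176 in Ctrl EVs, 651 CPM ± 143 in BDNF lysates and 707 CPM ± 230 in Ctrl lysates. The 3p members summed to 246 CPM ± 62.6, 252 CPM ± 43, 391 CPM ± 26.2 and 375 CPM ± 88.3 in the same groups (SD, n = 6 each). With the steps divided out and every member summed, 5p members were above 3p members in EVs: 239 CPM ± 45.7 against 117 CPM ± 52 in BDNF EVs and 310 CPM ± 149 against 124 CPM ± 36.7 in Ctrl EVs. In lysates the divided 5p sum was 198 CPM ± 53.3 with BDNF and 224 CPM ± 87.3 with vehicle, beside a 3p sum of 229 CPM in both (SD 10.8 with BDNF and 71.4 with vehicle). That 3p sum holds both miR-466b/c/p-3p (97.8 CPM with BDNF, 98.6 CPM with vehicle) and its near copy miR-466a/e-3p (94.1 and 95.1 CPM). The order of the strands in lysates therefore depends on whether both are counted. For miR-669c the 5p strand had 6032 counts and the 3p strand 10 over all libraries, and for miR-466i the 5p strand had 7031 and the 3p strand 104. The 3p strand led for miR-466b and its copies, with 9008 counts of miR-466b/c/p-3p beside 975 of miR-466b/o-5p and 522 of miR-466c-5p. After division by the step, the 5p form miR-467a/b-5p had 6.18 times the counts of the 3p form miR-467a/d-3p in BDNF EVs, 4.34 times in Ctrl EVs, 4.11 times in BDNF lysates and 4.08 times in Ctrl lysates. The same ratio for miR-669a/p-5p over miR-669a/o-3p was 1.31 in BDNF EVs, 1.24 in Ctrl EVs, 1.22 in BDNF lysates and 1.56 in Ctrl lysates.

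**Figure D3:**
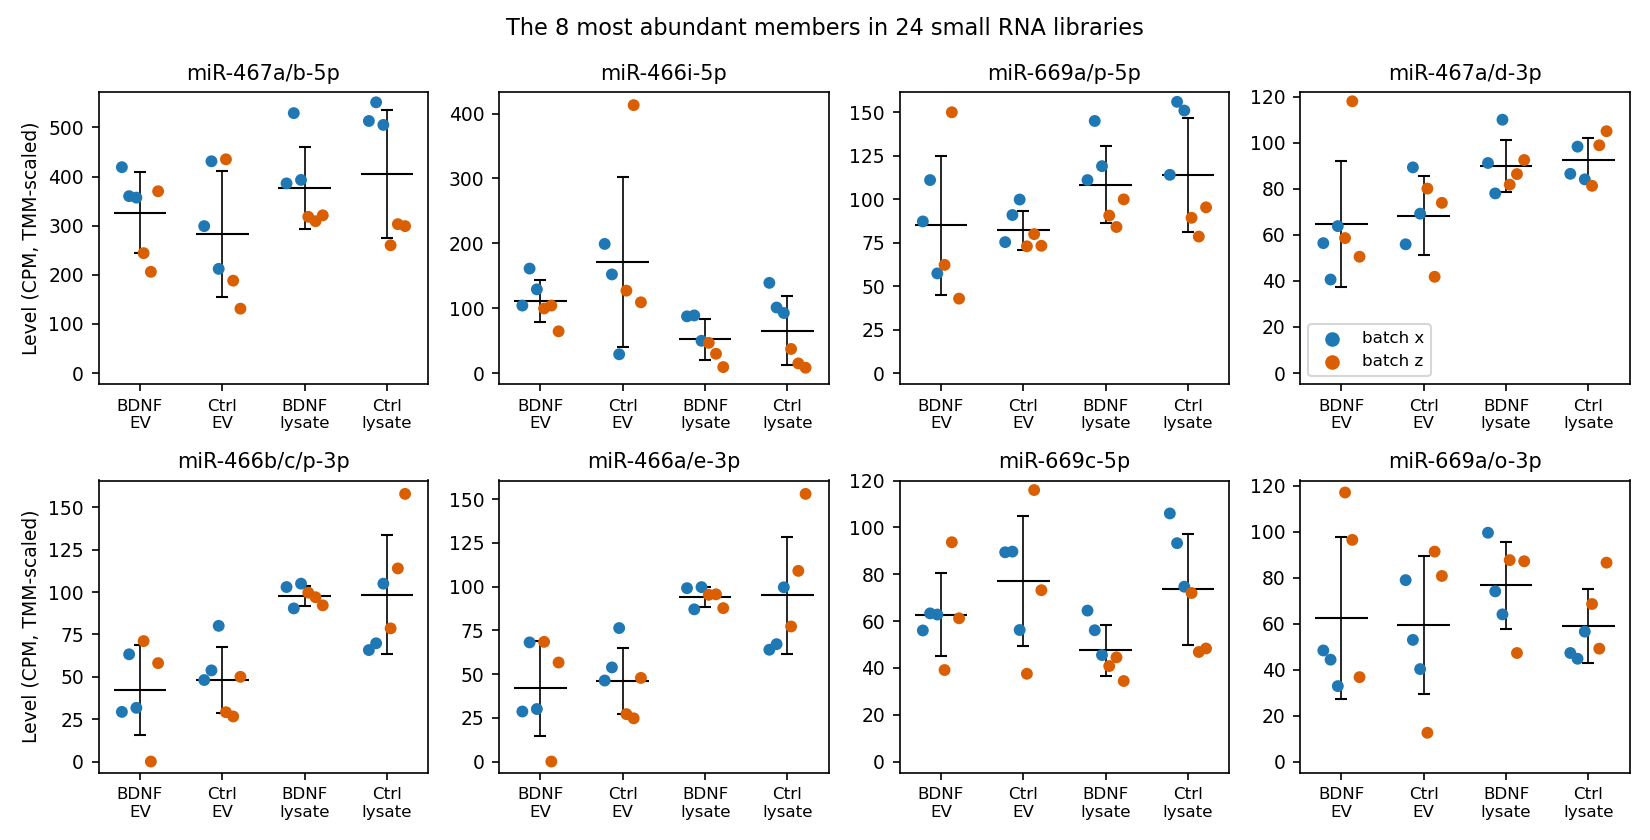
Level (y axis, TMM-scaled CPM from the counts as deposited) of the 8 most abundant members in BDNF EV, Ctrl EV, BDNF lysate and Ctrl lysate libraries (x axis). Points are libraries coloured by batch, long bars are group means and error bars are SD (n = 6). EV libraries of miR-466b/c/p-3p and miR-466a/e-3p sit below the BDNF lysates without overlap, and miR-466i-5p reaches 413 CPM in Ctrl EV library 8.

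Within the lysates, several abundant members separated by batch (the labels give batch x for numbers 1 to 3 and batch z for numbers 7 to 9, and do not say what a batch is). The level of miR-467a/b-5p was 386 to 529 CPM in BDNF lysates of batch x and 309 to 321 CPM in those of batch z. In Ctrl lysates it was 505 to 551 CPM in batch x and 260 to 303 CPM in batch z. For miR-466i-5p the batches also lay apart: BDNF lysates had 87.4, 88.8 and 49.7 CPM in batch x and 46.5, 29.7 and 9.17 CPM in batch z, and Ctrl lysates had 139, 101 and 92.5 CPM in batch x and 37.1, 14.8 and 8.16 CPM in batch z. The batch was a term in each test that follows.

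The first comparison asks which members differ between the vesicles and the cells that released them. After BDNF, 6 of the 20 members tested were lower in EVs than in lysates and 0 were higher (edgeR quasi-likelihood test, Benjamini-Hochberg adjusted p under 0.05 over all 521 miRNAs tested; at an unadjusted p under 0.05 there were 9 in either direction, and DESeq2 called 8 lower and 0 higher). Of all miRNAs tested, 27.3% were lower and 29.9% higher, and 57.2% were called in either direction, so the share of members that were lower is near that of the table. The median log2 fold change was −0.54 over the members tested and 0.02 over all miRNAs, and 16 of the 20 members lay below 0. The other 47 members did not pass the filter on low counts.

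Lower in BDNF EVs were miR-467e-5p, miR-466b/c/p-3p, miR-466a/e-3p, miR-466c-5p, miR-466g and miR-467a/d-3p. All their precursors lie inside Sfmbt2, as do those of 17 of the 20 members tested; 2 others have precursors at both places and only miR-466i-5p has none there. The level of miR-467e-5p, which has a single precursor gene and no count step, was 0, 2.08 and 4.44 CPM in BDNF EVs (lowest, median and highest of 6) and 5.61, 8.66 and 11.3 CPM in BDNF lysates. Every BDNF EV library lay below every BDNF lysate. On the log2 scale EVs were at −1.50 ± 0.31 relative to lysates (SE; adjusted p = 0.000196 by edgeR), or −1.38 within batch x and −2.93 within batch z. Its counts were low, at 0 to 13 in the EV libraries against 44 to 81 in the lysates, and 3 counts in BDNF EV library 8 would equal 8.03 CPM.

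The level of miR-466b/c/p-3p was 0, 44.9 and 71.1 CPM in BDNF EVs (lowest, median and highest) and 90.4, 98.4 and 105 CPM in BDNF lysates, again without overlap. On the log2 scale the difference was −1.15 ± 0.34 (SE; edgeR adjusted p of 0.0052). It was −1.41 in batch x (adjusted p = 1.7e-05) and −1.0 in batch z (adjusted p = 0.161, not called). Its near copy miR-466a/e-3p had a log2 fold change of −1.11 ± 0.34 (adjusted p = 0.00776), with 0, 43.3 and 68.4 CPM in BDNF EVs and 87.0, 95.5 and 99.7 CPM in BDNF lysates; within batch z it was not called (adjusted p = 0.162).

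Smaller or less secure differences were found for 3 members. The level of miR-467a/d-3p was 40.6, 57.5 and 118 CPM in BDNF EVs and 78.0, 88.8 and 110 CPM in BDNF lysates, with 5 EV libraries at 63.8 CPM or less and library 8 at 118 CPM. EVs were lower by a log2 fold change of −0.54 ± 0.19 (SE; adjusted p = 0.0168 by edgeR). The call ended without BDNF lysate 3 (adjusted p = 0.0506) or in batch z (−0.33, adjusted p = 0.305). Counts of miR-466c-5p came in steps of 3, and after division by the step it no longer passed the filter on low counts. As deposited, its counts were 12 and 21 in BDNF EV libraries 1 and 3 and 0 in the other 4. They were 30 to 57 in BDNF lysates. Its adjusted p was 0.0452, and leaving out BDNF EV 2, 7, 8 or 9 or BDNF lysate 1, 3, 7 or 8 ended the call (adjusted p 0.0538 to 0.0966), while without BDNF EV 3 the log2 fold change of −1.11 became −2.03. For miR-466g, with 0 to 4 counts in BDNF EVs and 12 to 24 in BDNF lysates, the adjusted p was 0.0391, and leaving out BDNF EV 1, 3 or 9 or BDNF lysate 1, 2 or 8 ended the call (adjusted p 0.0514 to 0.142).

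Without BDNF, 1 of the 20 members tested was higher in EVs than in lysates and 4 were lower. Of all 521 miRNAs tested, 32.1% were higher and 28.4% lower, 60.5% in either direction, beside 25% of the members tested. The median log2 fold change was −0.46 over the members and 0.01 over all miRNAs. The members lower in Ctrl EVs were miR-669b-5p, miR-466a/e-3p, miR-466b/c/p-3p and miR-467e-5p, and the last 3 of these were also lower in BDNF EVs than in BDNF lysates.

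The level of miR-467e-5p was 0.747, 3.82 and 7.61 CPM in Ctrl EVs and 4.45, 6.27 and 8.43 CPM in Ctrl lysates (lowest, median and highest). The groups overlap, with 4 of the 6 EV libraries below every lysate. The fold change on the log2 scale was −0.96 ± 0.29 (SE; adjusted p = 0.0068 by edgeR). Batch x gave −0.92 and batch z gave −0.97, the second of which was not called (adjusted p = 0.132). The level of miR-466b/c/p-3p was 26.6, 49.1 and 80.1 CPM in Ctrl EVs and 65.8, 91.5 and 158 CPM in Ctrl lysates, a log2 fold change of −0.98 ± 0.33 (adjusted p = 0.0131). Here batch z carried the call (−1.78, adjusted p = 0.0227) and batch x did not (−0.39, adjusted p = 0.128), the opposite of the BDNF cultures. For miR-466a/e-3p the log2 fold change was −0.99 ± 0.34 (adjusted p = 0.0135), again called in batch z (−1.81, adjusted p = 0.0207) and not in batch x (−0.37, adjusted p = 0.174). Counts of miR-669b-5p were 0 to 6 in Ctrl EVs and 3 to 36 in Ctrl lysates, in steps of 3. Its log2 fold change was −1.48 ± 0.64 (adjusted p = 0.049), and leaving out Ctrl EV 2, 3, 7 or 8 or Ctrl lysate 1, 3, 8 or 9 ended the call (adjusted p 0.053 to 0.124). It was −1.61 in batch x (adjusted p = 0.0315) and −1.51 in batch z (adjusted p = 0.289), and after division by the step it no longer passed the filter on low counts.

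The member that was higher in vesicles, miR-466i-5p, has its only precursor gene by name on chromosome 13, outside the Sfmbt2 cluster. Whether the reads of this member came from that gene was not tested. Its level was 28.9, 140 and 413 CPM in Ctrl EVs and 8.16, 64.8 and 139 CPM in Ctrl lysates (lowest, median and highest). The groups overlap, with 3 EV libraries above every lysate. EVs exceeded lysates by a log2 fold change of 1.78 ± 0.56 (SE; adjusted p = 0.00847 by edgeR). It was 3.29 in batch z (adjusted p = 0.00699) and 0.25 in batch x (adjusted p = 0.732). Without Ctrl EV library 8, which had the 413 CPM, it was 1.19 (adjusted p = 0.034). In a fit of only the 2 groups compared, 0 of 15 members tested were called higher in Ctrl EVs. In BDNF cultures the level was 64.3, 104 and 161 CPM in EVs and 9.17, 48.1 and 88.8 CPM in lysates, with 5 of 6 EV libraries above every lysate. EVs were higher in all 6 matches of libraries of the same number, but these EV and lysate libraries did not pair (correlations −0.107 to 0.197). In BDNF cultures the log2 fold change was 1.19 ± 0.54 (edgeR adjusted p = 0.0608, not called). Batch x alone gave 0.68 and batch z alone 1.63, neither called.

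The other abundant members were not called between EVs and lysates in the fit of both batches, but some were called within 1 batch alone. The level of miR-467a/b-5p was 206, 358 and 419 CPM in BDNF EVs and 309, 353 and 529 CPM in BDNF lysates (lowest, median and highest), and 131, 256 and 435 CPM in Ctrl EVs and 260, 404 and 551 CPM in Ctrl lysates. These groups overlap, and the log2 fold changes were −0.20 ± 0.21 with BDNF (edgeR adjusted p = 0.41) and −0.47 ± 0.21 without (adjusted p = 0.0548). The level of miR-669a/p-5p was 42.8, 74.7 and 150 CPM in BDNF EVs and 84.0, 105 and 145 CPM in BDNF lysates, and 72.9, 77.6 and 99.8 CPM in Ctrl EVs and 78.5, 104 and 156 CPM in Ctrl lysates. Its log2 fold changes were −0.38 ± 0.21 (adjusted p = 0.112) and −0.46 ± 0.20 (adjusted p = 0.0533). Within batch x it was called lower in both (−0.68, adjusted p = 0.00324, and −0.64, adjusted p = 0.00403). Batch x alone also called miR-467a/b-5p lower without BDNF (−0.70, adjusted p = 0.00165) and miR-669a/o-3p lower with BDNF (−1.03, adjusted p = 0.000279). Batch z alone called none of these. In Ctrl cultures miR-467a/d-3p was also not called in the fit of both batches (−0.41 ± 0.18, edgeR adjusted p = 0.0573). There 5 of its 6 EV libraries lay below every lysate. Batch z alone called miR-467a/d-3p lower (−0.61, edgeR adjusted p = 0.0467) and batch x alone did not (−0.30, edgeR adjusted p = 0.157). With the counts divided by their step, miR-669a/p-5p was called lower in both (−0.53, adjusted p = 0.0338, and −0.51, adjusted p = 0.0256), and miR-467a/b-5p was called lower without BDNF (−0.49, adjusted p = 0.0392).

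**Figure D4:**
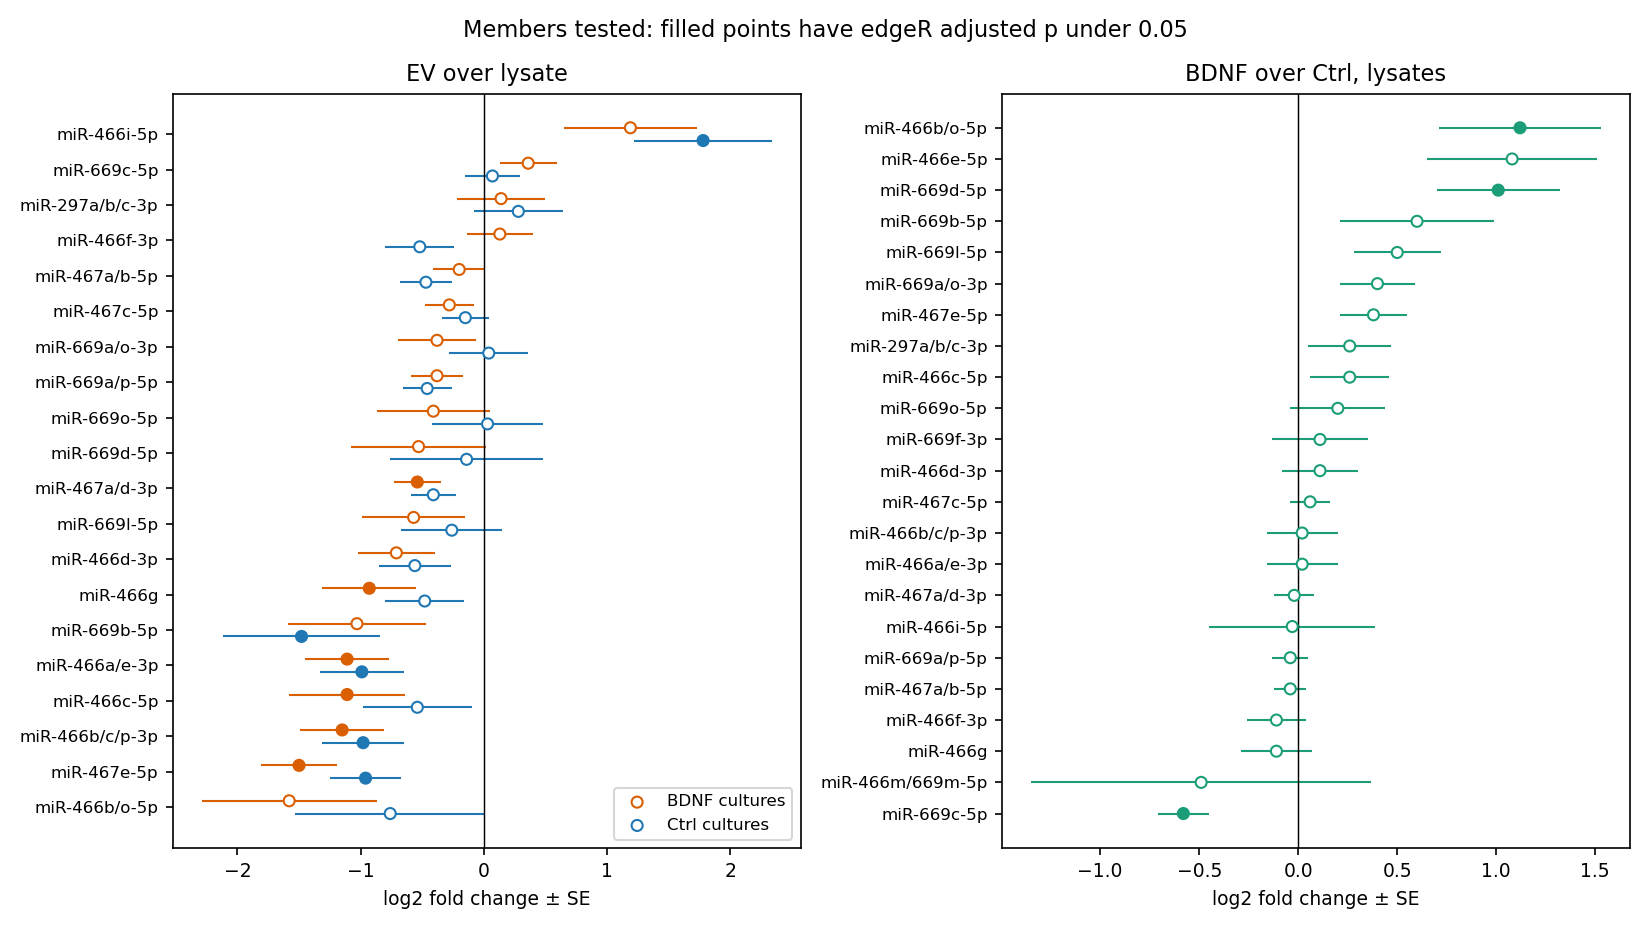
Log2 fold change ± SE (x axis) of each member tested (y axis), for EV over lysate in BDNF and Ctrl cultures (left panel) and for BDNF over Ctrl in lysates (right panel); filled points have an edgeR adjusted p under 0.05. On the left 16 of 20 members lie below 0 in BDNF cultures and miR-466i-5p is at the top; on the right miR-669c-5p is lowest and miR-466b/o-5p highest.

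The same libraries also differed in markers of other cells. Among 10 miRNAs typical of vascular, leukocyte, oligodendrocyte, red blood and liver cells, 6 of the 8 tested were higher in EVs than in lysates in both cultures. The summed level of all 10 was 2555 to 16980 CPM in BDNF EVs, 3178 to 12418 CPM in Ctrl EVs, 446 to 491 CPM in BDNF lysates and 494 to 649 CPM in Ctrl lysates. Without the liver miRNA miR-122-5p it was 652 to 2726, 553 to 2847, 409 to 449 and 441 to 583 CPM in the same groups, and the leukocyte marker miR-142a-3p was at 0 in the EVs. The 3 neuronal markers summed to 209238 to 322683 CPM in BDNF EVs, 167612 to 302544 CPM in Ctrl EVs, 487025 to 589082 CPM in BDNF lysates and 519737 to 655465 CPM in Ctrl lysates. Singly, 1 of these 3 was higher in EVs, 1 was lower and 1 was not called in each culture. The part of these markers in the members' differences was not tested. In bulk lysates fewer cells of a type and less RNA per cell cannot be told apart. The EV libraries hold vesicles from the medium, so their marker sums do not give shares of cells.

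The next comparison asks what BDNF did in the donor cells. Of the 23 members tested in lysates, 2 were higher and 1 was lower with BDNF. Of all 519 miRNAs tested, 22.2% were higher and 21% lower, 43.2% in either direction, beside 13% of the members tested. The median log2 fold change was 0.11 over the members tested. The abundant cluster members miR-467a/b-5p, miR-467a/d-3p, miR-669a/p-5p, miR-466b/c/p-3p and miR-466a/e-3p were not called, with log2 fold changes of −0.04 to 0.02. For miR-466b/c/p-3p the value of 0.02 joins 0.41 for batch x with −0.31 for batch z, and for miR-466a/e-3p it joins 0.41 and −0.32, none of them called. For miR-669a/o-3p the level was 47.2, 80.6 and 99.5 CPM in BDNF lysates and 44.7, 52.8 and 86.5 CPM in Ctrl lysates (lowest, median and highest), and the groups overlap. Its log2 fold change was 0.40 ± 0.19 (adjusted p = 0.101 by edgeR), with 0.78 in batch x alone (adjusted p = 0.0223) and 0.09 in batch z alone (adjusted p = 0.849).

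The lower member was miR-669c-5p, which has a single gene in the cluster and no count step. Its level was 34.4, 45 and 64.5 CPM in BDNF lysates and 46.8, 73.4 and 106 CPM in Ctrl lysates (lowest, median and highest). It was lower with BDNF in all 6 pairs of libraries of the same number, and 4 BDNF lysates lay below every Ctrl lysate. BDNF lysates were lower by a log2 fold change of −0.58 ± 0.13 (SE; adjusted p = 0.00239 by edgeR). Within batch x it was −0.61 (adjusted p = 0.0293) and within batch z −0.50 (adjusted p = 0.0387). With EV libraries in the same fit the adjusted p was 0.0655 (3.65e-07 to 0.0655 over 22 alternatives).

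Higher with BDNF was miR-669d-5p, at 1.51, 3.20 and 5.33 CPM in BDNF lysates and 1.01, 1.26 and 2.45 CPM in Ctrl lysates. It had 8 to 34 counts in BDNF lysates and 4 to 18 in Ctrl lysates, in steps of 2, and was higher in all 6 pairs. Its log2 fold change of 1.01 ± 0.31 (SE; adjusted p = 0.0157 by edgeR) was 1.24 within batch x (adjusted p = 0.101) and 0.86 within batch z (adjusted p = 0.0944). After division by the step it no longer passed the filter on low counts. The level of miR-466b/o-5p was 10.8, 14.8 and 19.3 CPM in BDNF lysates and 1.30, 4.73 and 14.0 CPM in Ctrl lysates. It was higher in all 6 pairs, with 3 BDNF lysates above every Ctrl lysate. Its log2 fold change was 1.12 ± 0.41 (adjusted p = 0.0418). The call ended without BDNF lysate 1, 2, 3, 7 or 9 or Ctrl lysate 1, 7 or 8 (adjusted p 0.0524 to 0.121), and it was not made in batch x (1.64, adjusted p = 0.0546) or in batch z (0.76, adjusted p = 0.277).

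Libraries of the same number deviated together in the lysates (correlations 0.476 to 0.689), but less so with batch means removed (−0.0261 to 0.43). With the number as a block a further member was called. This was miR-466e-5p, with 8 to 22 counts in BDNF lysates and 0 to 16 in Ctrl lysates, whose log2 fold change was 1.08 (adjusted p = 0.0554) with the batch term and 1.12 (adjusted p = 0.0228) with the block. With all 24 libraries in the fit, 0 of 20 members were called in lysates (3 at an unadjusted p under 0.05). Of all miRNAs, 65 of 521 were called in that fit.

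In the vesicles no effect of BDNF on a member was called. Of 10 members tested, 0 were called by edgeR or by DESeq2, and 0 had an unadjusted p under 0.05. Of all 377 miRNAs tested, edgeR called 0 (0%; 43 at an unadjusted p under 0.05) and DESeq2 called 5 higher and 7 lower. The smallest unadjusted p values belonged to miR-669c-5p, miR-466i-5p and miR-467a/d-3p. The level of miR-669c-5p was 39.1, 62 and 93.7 CPM in BDNF EVs and 37.5, 81.3 and 116 CPM in Ctrl EVs, which is −0.36 ± 0.23 as a log2 fold change (adjusted p = 0.523 by edgeR). For miR-466i-5p it was −0.57 ± 0.52 (adjusted p = 0.685) and for miR-467a/d-3p −0.21 ± 0.22 (adjusted p = 0.701). The SEs of these 10 members ran from 0.22 to 0.52 on the log2 scale.

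The difference between the effect of BDNF in EVs and in lysates was tested directly. Of 20 members tested, 0 were called by edgeR or by DESeq2 and 0 had an unadjusted p under 0.05, while 2.69% of all 521 miRNAs were called (1.54% higher and 1.15% lower). The smallest unadjusted p values belonged to miR-466f-3p, miR-467e-5p and miR-669a/o-3p. The level of miR-466f-3p was 3.30, 6.73 and 11.6 CPM in BDNF EVs and 2.78, 4.87 and 9.51 CPM in Ctrl EVs, and 4.54, 5.70 and 6.75 CPM in BDNF lysates and 4.53, 6.5 and 7.65 CPM in Ctrl lysates. The log2 difference of effects was 0.65 ± 0.39 (SE, edgeR adjusted p = 0.423). For miR-467e-5p it was −0.54 ± 0.43 (adjusted p = 0.548) and for miR-669a/o-3p −0.42 ± 0.46 (adjusted p = 0.688, but 0.0263 in batch x alone). For miR-669c-5p it was 0.29 ± 0.32 (adjusted p = 0.691), so its lower level with BDNF in lysates was not shown to differ from that in EVs.

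For scale, the Dlk1-Dio3 cluster, another large imprinted miRNA cluster of the mouse, had 47 of 48 listed members tested. In EVs against lysates 15 were higher and 15 lower after BDNF, and 17 were higher and 13 lower without it. In lysates 18 were higher and 12 lower with BDNF than with vehicle. Of all miRNAs tested, 29.9% were higher and 27.3% lower in EVs after BDNF, and 32.1% and 28.4% without it. With BDNF in lysates 22.2% were higher and 21% lower. Of 9 miRNAs outside the families whose sequence holds UGUGUGU or ACACACA, 4 were tested. In both cultures miR-672-5p was higher in EVs than in lysates (log2 fold change 1.43 with BDNF and 1.15 without), and miR-672-3p and miR-32-3p were lower.

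The host gene of the cluster, Sfmbt2, was measured only in hippocampal neurons, which are other cells than those of the small RNA libraries. It was 2.83, 3.25 and 7.33 CPM in BDNF neurons and 1.64, 2.66 and 5.02 CPM in Ctrl neurons (lowest, median and highest of 6), from 58 to 151 and 40 to 102 counts. The groups overlap, but within each of the 4 batches every BDNF library was above every Ctrl library: batch a had 2.83 against 2.09 CPM, batch b 2.83 and 3.01 against 1.64 and 2.49, batch c 5.99 and 7.33 against 4.50 and 5.02, and batch d 3.49 against 2.82. The fold change on the log2 scale was 0.46 ± 0.11 (SE; adjusted p = 0.00747 by edgeR), and 13.8% of 17609 genes were called. Without the batch term the change was 0.45 and not called (adjusted p = 0.462).

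In neurons given EVs, Sfmbt2 was 2.04 CPM with BDNF EVs and 2.42 CPM with Ctrl EVs in batch a, and 2.50 and 1.51 CPM with BDNF EVs and 2.06 and 1.98 CPM with Ctrl EVs in batch b. The groups overlap. The log2 fold change was −0.07 ± 0.19 (edgeR adjusted p = 0.948), where 0 of 17609 genes were called (0%). Ctrl EVs against Ctrl gave 0.05 ± 0.18 (adjusted p = 0.988), where 0.0284% of genes were called. The gene count does not say how much of the cluster was cut into mature miRNAs.

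**Figure D5:**
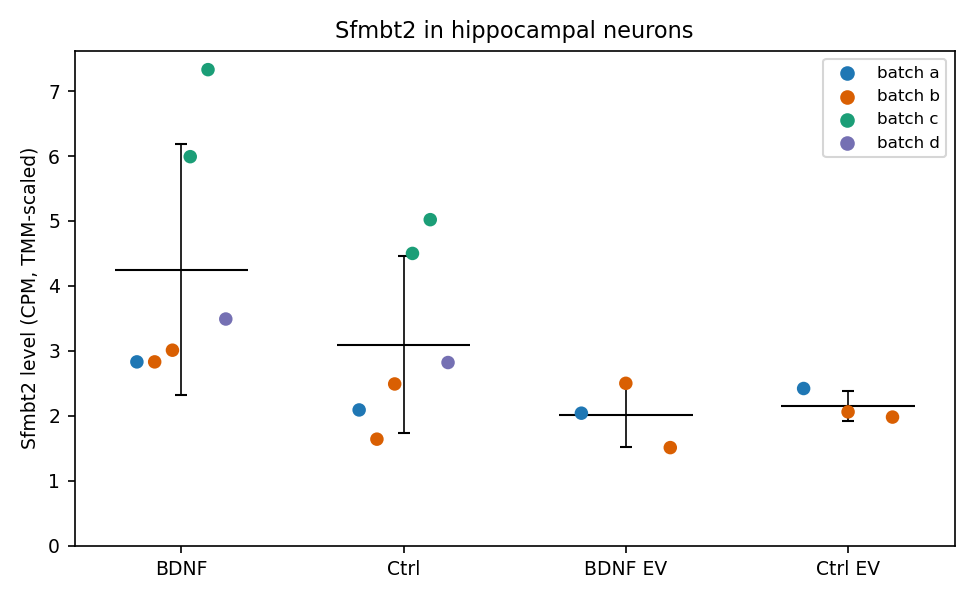
Sfmbt2 level (y axis, TMM-scaled CPM) in hippocampal neurons given BDNF, vehicle (Ctrl), EVs of BDNF-treated donors or EVs of Ctrl donors (x axis). Points are libraries coloured by batch, long bars are means and error bars are SD (n = 6, 6, 3 and 3). Within each batch the BDNF libraries lie above the Ctrl libraries, and batch c is highest in both groups.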

How the data were processed

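The deposited small RNA table holds raw counts per mature miRNA for 24 libraries, and the deposited gene table holds raw counts per gene for 18 libraries. Both were made by the authors with, per the submitters' processing notes, CASAVA 1.8 and 1.8.2, cutadapt 1.8.1, DESeq2 and the mm10 genome; the aligner, the counter and the annotation were not named by any source used here. Of 1915 rows in the small RNA table, 18 repeated another row with at least 5 counts exactly and were left out, 13 of them members. Groups and batches were taken from the labels. The members and all lists were chosen with earlier results of these data known.

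Counts were tested with edgeR 4.0.16 in R 4.3.3 (TMM scaling, filterByExpr with a minimum count of 10, robust quasi-likelihood fit, batch as a covariate), and p-values were adjusted by Benjamini-Hochberg over all miRNAs or genes tested at a threshold of 0.05. EVs were compared with lysates in 1 fit of all 24 libraries, which also gave the difference of effects; BDNF against Ctrl was tested within lysates and within EVs. An SE is the log2 fold change divided by the square root of the test's F. The steps were tested on simulated data. Alternatives were DESeq2 1.42.0, other scaling, no filter, no batch term, each batch alone, a replicate block, other sets of libraries, all rows kept, each library left out, and, added after seeing the data, division of a miRNA's counts by their common multiple.

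Members named are the 8 most abundant and, in each comparison, up to 5 called members at each end of the fold changes, or the 3 with the smallest p where none was called; the only other members named were chosen after their values were seen or have a printed sequence. Libraries of the same number pair by the data in BDNF against Ctrl: the correlations of their deviations from group means were 0.476 to 0.689 in lysates and 0.226 to 0.59 in EVs. The labels do not state a shared source, and with batch means removed the correlations were −0.0261 to 0.43 and −0.101 to 0.0522. EV and lysate libraries of the same number did not pair this way. Library totals limit what low members can show: 3 counts equal 8.03 CPM in the shallowest library, a floor for counting error only. Mature sequences and positions are from RefSeq (GRCm38.p6), matched by miRNA name; 8 of 67 members matched.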

Additional observations from a re-analysis of the deposited data

Results flagged for a closer look

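In 2 of 70 groups of 6 libraries checked over the members, 1 library stood apart from the rest by Dixon's test at the 95% level, where chance gives about 1 group in 20. The level of miR-467a/d-3p was 118 CPM in BDNF EV library 8 and 40.6 to 63.8 CPM in the other 5 BDNF EV libraries (gap over range 0.7), and that value rests on 44 counts, or 4 steps of 11. The level of miR-466b/o-5p was 19.4 CPM in Ctrl EV library 9 and 0 to 5.98 CPM in the other 5 Ctrl EV libraries (gap over range 0.692).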

How the results depend on the processing

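The 14 called results of single members had 301 alternatives, of which 244 kept the call, 57 did not and 0 reversed its direction. Calls are given here of the members tested, with those of all miRNAs tested in parentheses. For BDNF EVs against BDNF lysates the main fit called 6 of 20 (298 of 521). No filter gave 15 of 61 (324 of 1355), batch z alone 2 of 22 (267 of 533) and all rows kept 10 of 30 (307 of 534). For Ctrl EVs against Ctrl lysates the main fit called 5 of 20 (315 of 521). DESeq2 gave 9 of 20 (339 of 521) and no filter 10 of 61 (345 of 1355). RLE scaling gave 8 of 20 (324 of 521), all rows kept 8 of 30 (321 of 534) and scaling without miR-9-5p 8 of 20 (322 of 525). For BDNF against Ctrl lysates the main fit called 3 of 23 (224 of 519). No filter gave 5 of 60 (213 of 1296), batch z alone 1 of 27 (133 of 539) and all 24 libraries 0 of 20 (65 of 521). In EVs, with 0 of 10 called (0 of 377), no filter gave 1 of 50 (9 of 1149). For the difference of effects the main fit called 0 of 20 (14 of 521). There no filter gave 1 of 61 (18 of 1355) and batch x alone 1 of 20 (22 of 525). Leaving out 1 library gave 4 to 7, 5 to 8, 2 to 6, 0 and 0 members in these comparisons. The 8 came without Ctrl EV 9, of 24 tested (305 of 546). In lysates 5 of 24 were called without BDNF lysate 8 (211 of 524) and 6 of 24 without Ctrl lysate 9 (239 of 524). With the replicate block the numbers were 8 of 20, 5 of 20, 4 of 23, 0 of 10 and 0 of 20. Over all miRNAs they were 287 of 521, 305 of 521, 238 of 519, 0 of 377 and 0 of 521. EV and lysate libraries did not pair by number. With the block edgeR called miR-466i-5p higher (1.31, adjusted p = 0.0383) and miR-466b/o-5p lower (−1.82, adjusted p = 0.0302) in BDNF EVs. In Ctrl EVs miR-669b-5p was then no longer called (−1.39, edgeR adjusted p = 0.0682). Dividing out the common multiples gave 0 higher and 6 lower of 17, 1 and 5 of 17, 1 and 1 of 19, 0 of 6, and 0 of 17. Over all miRNAs 300 of 517, 319 of 517, 223 of 515, 0 of 373 and 16 of 517 were called. In BDNF EVs miR-466c-5p was then no longer tested, and miR-669a/p-5p was newly called lower. Without miR-9-5p the median of all miRNAs moved to −0.14 in BDNF EVs against BDNF lysates, and that of the members to −0.69. The causes were not tested.

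Median detection in EVs (30) was 21 at 3 counts or more, 11.5 at 10 or more, 41 with all rows kept, 21.1 at the smallest total and 19.8 there with multiples divided out. In lysates (45) it was 35.5, 24.5, 56.5, 23.2 and 21.4. The summed share was 0.0998% in EVs and 0.0956% in lysates, 0.177% and 0.184% with all rows kept, and 0.0454% and 0.0398% with multiples divided out.

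The Sfmbt2 log2 fold change for BDNF against Ctrl was 0.41 to 0.51 with 1 library left out, and 0.45 (adjusted p = 0.462) without the batch term. BDNF EV against Ctrl EV gave −0.29 to 0.10, above 0 without Ctrl EV 3 (0.01) or BDNF EV 16 (0.10). Ctrl EV against Ctrl gave −0.05 to 0.12, below 0 without Ctrl 9 (−0.05), without Ctrl EV 3 (−0.04) and with no batch term (−0.52).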
